A study of Danio rerio with 4 samples.

Results

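The genes described here are 6 genes of muscle energy supply and calcium handling, measured in the whole tail of the zebrafish embryo at 3 days post fertilization (dpf): *ckmt2a*, *eno3*, *pygma*, *ak1*, *pvalb4* and *atp2a1l*. They were chosen by name from the genes that the study lists as differing between asxl1+/+ and asxl1-/- tails, so they were selected on measured differences between the same 4 libraries, and their differences between the genotypes are given as a description that supports nothing. They are 6 of the 32520 genes of the count table, and all 6 passed the filter on low counts that left 19970 genes. The deposited table pairs no names with its Ensembl identifiers. The study's list of genes gave the identifiers of the 6 genes, and the reference name table holds the same symbol for 4 of them, with the human symbols CKMT2 and PYGM in place of *ckmt2a* and *pygma*.

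Contracting muscle spends ATP faster than oxidative metabolism can replace it over short bursts. Creatine kinases and adenylate kinases rebuild ATP from phosphocreatine and from ADP, while glycogen phosphorylase releases glucose units from glycogen for glycolysis, in which enolase catalyses a late step. Calcium released from the sarcoplasmic reticulum starts contraction. Parvalbumins, soluble calcium-binding proteins abundant in fast muscle of fish, take up part of that calcium during relaxation, and the SERCA calcium ATPases pump it back into the reticulum.

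RNA-seq was done on 4 libraries, each from a pool of around 20 tails that included the caudal hematopoietic tissue, where hematopoietic stem and progenitor cells multiply at this stage. Libraries A and B came from asxl1+/+ embryos and another A and B from asxl1-/- embryos, all from asxl1+/- intercrosses on an AB background, at 3 dpf and with no treatment. The asxl1-/- embryos carry a CRISPR/Cas9 deletion in exon 12 that is predicted to truncate the protein before its C-terminal domains, and the labels of the libraries do not name the allele. A library holds all cell types of the tail, so fewer cells of a type and less RNA per cell cannot be told apart.

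Total counts ranged from 19423797 to 26281738 per library, with both asxl1-/- libraries less deep than both asxl1+/+ libraries. Values are CPM, counts scaled to a common library total with TMM factors, and levels are compared between genes as CPM per kilobase of exon. *asxl1* itself (chromosome 23 from 30730121 to 30752553 on GRCz11) had 65.4 and 65.3 CPM in asxl1+/+ libraries A and B and 57.2 and 57.7 CPM in asxl1-/- libraries A and B. A count over the whole gene does not show the exon 12 deletion, so these values do not check the genotype of a library. The lists of marker genes showed a muscle-rich tissue. The 22 fast muscle markers tested summed to between 195370 and 208720 CPM per library and the 11 slow muscle markers to between 6192 and 7110 CPM, whereas the 5 heart markers tested summed to between 94.2 and 113 CPM, and the heart light chain gene MYL7 had 0 counts in every library.

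Some marker lists of other cell types differed between the genotypes. The 10 exocrine pancreas markers tested summed to 15.1 and 39.2 CPM in asxl1+/+ libraries A and B and to 5.70 and 5.99 CPM in asxl1-/- libraries A and B. All 10 had a log2 fold change below 0. Some, such as *ctrb1* and *ctrl*, passed the filter on low counts only through the asxl1+/+ libraries, so their direction was fixed by the filter. These and *prss1* and *prss59.2* are also on the study's list, so nothing is read from the pancreas values. The 4 neutrophil markers summed to 84.1 and 96.6 CPM in asxl1+/+ and to 73.3 and 62.9 CPM in asxl1-/-. These markers, *lyz*, *mpx*, *npsn* and *srgn*, are those that the paper reports as downregulated in the same libraries, so nothing is read from their sums. The slow muscle markers summed to 6192 and 6362 CPM in asxl1+/+ and to 6519 and 7110 CPM in asxl1-/-. Of the 11, 6 were higher in both asxl1-/- libraries than in both asxl1+/+ libraries, and 3 were lower in both. Over all genes tested, the shares were 15.4% higher and 14.6% lower. The higher genes *smyhc2*, *smyhc3*, *tnnc1b*, *myl10* and *myl13*, the lower gene *myh7bb* and *smyhc1* are on the study's list. They had been selected on this contrast, so nothing is read from these counts and sums. The heart sums were 110 and 113 CPM in asxl1+/+ and 97.8 and 94.2 CPM in asxl1-/-. The heart list genes *cmlc1*, *nppa* and TNNT2 had at most 7 counts in any library and did not pass the filter on low counts. Of those tested, *myh7*, *smyhc3* and *tnnt2b* are on the study's list and so had been selected on this contrast, and nothing is read from the heart sums. Of the 5 heart markers tested, 2 had a log2 fold change above 0 and 3 below 0. The 2 above 0 were *smyhc3* and *myh6*, and *myh6* had only 0.520 and 1.08 CPM in asxl1+/+ and 0.764 and 1.36 CPM in asxl1-/-. Most of the heart sum was *myh7*, at 77.8 CPM in each asxl1+/+ library and 60.2 and 56.9 CPM in asxl1-/-. *smyhc3* is a gene of the slow muscle list that came into the heart list only through the matching of symbols, and it is counted in both. It had 26.0 and 29.1 CPM in asxl1+/+ and 33.3 and 32.7 CPM in asxl1-/-. The sums of the 6 epidermis markers were also lower in both asxl1-/- libraries, at 30088 and 31183 CPM beside 31745 and 33180 CPM in asxl1+/+. Single epidermis markers went both ways, with 2 of 6 at a log2 fold change above 0 and 4 below 0. Among them, *krt5*, *krt8*, *krt17* and *agr2* are on the study's list, so nothing is read from the epidermis values. The sums of the 7 neuron markers were lower as well, at 630 and 660 CPM beside 681 and 685 CPM, with 1 of 7 above 0 and 6 below 0. The sums of the liver, erythrocyte and notochord markers overlapped between the genotypes. The fast muscle sums overlapped between the genotypes, at 199790 and 208720 CPM in asxl1+/+ and 195370 and 205390 CPM in asxl1-/-. The part of these lists in the differences of the 6 genes was not tested.

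Of the 6 genes, *eno3*, *pygma*, *ak1* and *pvalb4* were higher in both asxl1-/- libraries than in both asxl1+/+ libraries, and *ckmt2a* and *atp2a1l* were lower in both. The differences were small, with log2 fold changes between 0.11 and 0.21 for the 4 higher genes and of -0.53 and -0.23 for *ckmt2a* and *atp2a1l*. None of the 6 passed an FDR of 0.05 in edgeR's quasi-likelihood test over all genes tested, a threshold that 12 of the 19970 genes or 0.0601% passed, and 6 of the 6 had an unadjusted p below 0.05, as had 616 genes in all. DESeq2 and edgeR's exact test, also fitted on the genotype alone, gave 0 of 6 at that FDR, beside 27 and 53 of all genes tested. A quasi-likelihood fit that also held the replicate letter (A or B) as a block gave 5 of 6, beside 301 of the 19970 genes. The labels do not say what libraries of a letter share. The genotypes did not overlap for 6 of 6 genes, beside 30.1% of all genes tested, with asxl1-/- above asxl1+/+ in 15.4% and below it in 14.6%. The genes had been selected on this contrast, so nothing is read from these counts. With 2 libraries in each genotype, the smallest two-sided p that an exact permutation can reach for a single gene is 0.333.

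**Figure D1:**
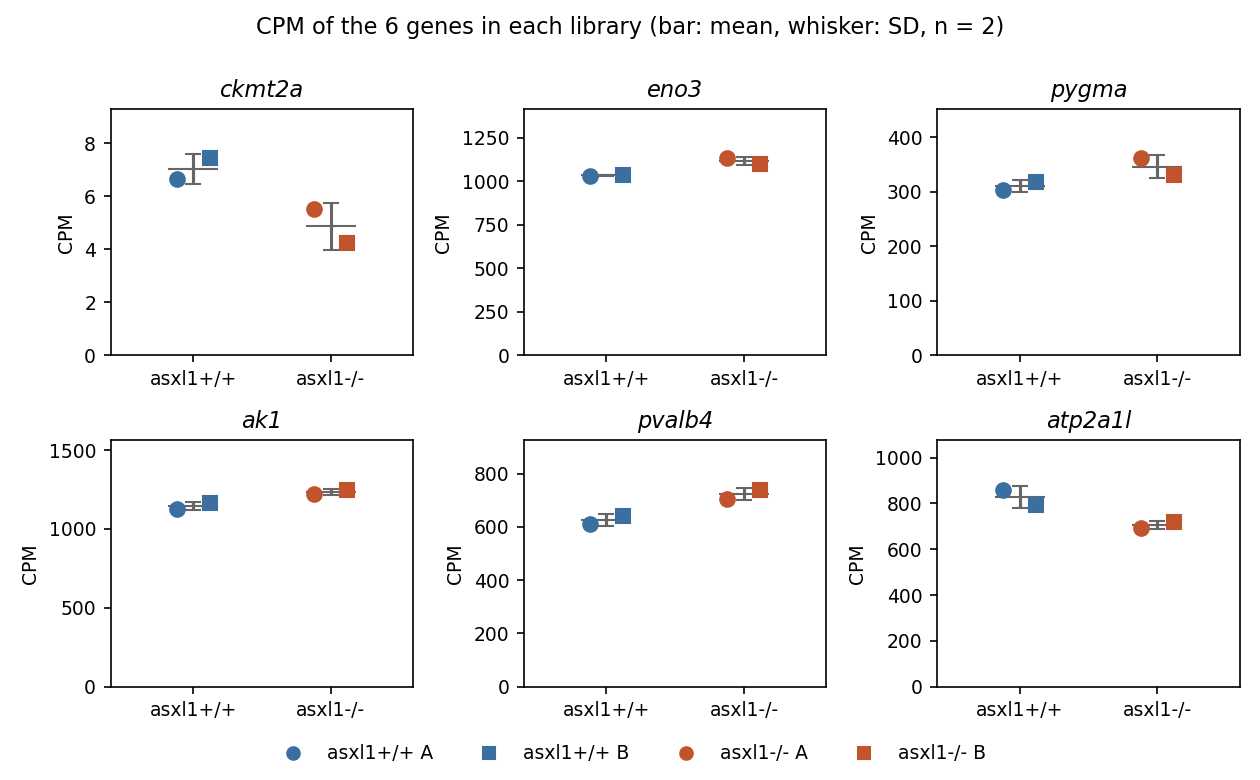
CPM of each of the 6 genes (vertical axes, each starting at 0) in the 4 libraries by genotype, with circles for library A, squares for library B, bars for the mean and whiskers for the SD of 2 libraries. *eno3*, *pygma*, *ak1* and *pvalb4* lie higher in both asxl1-/- libraries, and *ckmt2a* and *atp2a1l* lie lower, with *ckmt2a* between 4.23 and 7.42 CPM and every library of the other 5 genes at 302.9 CPM or more.

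The 6 genes lie on 6 chromosomes. They differed widely in level, by 470-fold from the highest to the lowest mean of CPM per kilobase. *ak1* was highest at 1317 CPM per kilobase over the 4 libraries, rank 46 among all genes tested, followed by *pvalb4* at 341 (rank 174), *eno3* at 261 (rank 212), *atp2a1l* at 136 (rank 333), *pygma* at 120 (rank 366) and *ckmt2a* at 2.80 (rank 11210). The order was the same in every library for all neighbours except *atp2a1l* and *pygma*. The level of *atp2a1l* was between 0.929 and 1.38 times that of *pygma*, so these 2 genes changed places between libraries, with *atp2a1l* above *pygma* in both asxl1+/+ libraries and in asxl1-/- library B and below it in asxl1-/- library A. *pvalb4* was between 1.23 and 1.40 times *eno3* in every library.

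*ckmt2a* (ENSDARG00000069615, chromosome 10 from 3111004 to 3129887 on GRCz11, plus strand, 12 exon blocks) is one of the zebrafish genes for the sarcomeric mitochondrial creatine kinase, which in mammals makes phosphocreatine at the mitochondria of striated muscle. It had 153 and 193 counts in asxl1+/+ libraries A and B and 108 and 84 counts in asxl1-/- libraries A and B. These counts were 6.63 and 7.42 CPM in asxl1+/+ and 5.50 and 4.23 CPM in asxl1-/-, or 7.03 ± 0.559 (SD, n = 2) and 4.86 ± 0.897 (SD, n = 2). The log2 fold change was -0.53 (standard error 0.18) with an FDR of 0.9999 in the quasi-likelihood test. Library B of asxl1-/- was the lowest of the 4, and the gap between the genotypes was 1.13 CPM. Counting alone gives this gene a relative error of 7.20% to 10.9% per library, whereas it is at most 1.23% for each of the other 5 genes.

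*ckmt2a* was the least abundant of the 7 creatine kinase genes. The muscle-type cytosolic genes *ckma* and *ckmb* had mean levels of 8315 and 9017 CPM per kilobase, ranks 7 and 6 among all genes tested. The other CKMT2 gene (ENSDARG00000039929) had 240 CPM per kilobase, and *ckmt2a* was at 0.0129 and 0.0147 of its level in asxl1+/+ libraries A and B and at 0.0104 and 0.00869 in asxl1-/- libraries A and B. That other CKMT2 gene had 444 and 436 CPM in asxl1+/+ and 457 and 420 CPM in asxl1-/-, which overlapped (log2 fold change -0.01, standard error 0.06). *ckma* (log2 fold change -0.02) and *ckmb* (0.04) also overlapped between the genotypes, as did CKMT1B (-0.03), the mitochondrial creatine kinase found in many tissues of mammals. The CPM of the family as a whole summed to between 29245 and 30393 per library. *ckmt2a* thus took a very small part in a family sum that differed by 0.02 on the log2 scale between the genotypes.

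*eno3* (ENSDARG00000039007, chromosome 23 from 44611864 to 44625579, plus strand, 13 exon blocks) encodes the muscle-type enolase. It had 23770 and 26964 counts in asxl1+/+ libraries A and B and 22228 and 21818 counts in asxl1-/- libraries A and B. These gave 1030 and 1037 CPM in asxl1+/+ and 1132 and 1099 CPM in asxl1-/-. The means were 1034 ± 4.70 and 1115 ± 23.4 CPM (SD, n = 2 each), with a gap of 61.5 CPM between the nearest libraries of the genotypes. The log2 fold change was 0.11 (standard error 0.05) with an FDR of 0.9999 in the quasi-likelihood test.

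*eno3* lies 13.9 Mb from *asxl1* on the same chromosome, the only one of the 6 genes to do so. Embryos sorted by their *asxl1* genotype also inherit the neighbouring stretch of that chromosome, and the mutation and such linked sequence cannot be told apart for a gene of chromosome 23. The enolase nearest to it in level, *eno1a* (ENSDARG00000022456), also lies on chromosome 23, 8.07 Mb from *asxl1*, and is on the study's list too. Its level was 514 and 519 CPM in asxl1+/+ and 568 and 556 CPM in asxl1-/- (log2 fold change 0.12, standard error 0.05, FDR 0.9999 in the quasi-likelihood test). Per kilobase, *eno3* was at 1.82 times the level of *eno1a* in each asxl1+/+ library and at 1.82 and 1.80 times in asxl1-/- libraries A and B, so the ratio of the 2 genes varied little over the 4 libraries. The other enolases were far lower. The neuronal enolase gene *eno2* had 41.3 and 40.2 CPM in asxl1+/+ and 38.03 and 39.98 CPM in asxl1-/-. ENO1 (ENSDARG00000013750, chromosome 6), a copy of the enolase of most cell types, had 20.6 and 19.1 CPM in asxl1+/+ and 16.3 and 16.1 CPM in asxl1-/-, which differed by -0.29 ± 0.11 (standard error) on the log2 scale (FDR 0.9999 in the quasi-likelihood test). Within the family, 2 genes were thus higher and 2 lower in both asxl1-/- libraries, and the family sum was 1607 and 1615 CPM in asxl1+/+ and 1754 and 1711 CPM in asxl1-/-.

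*pygma* (ENSDARG00000055518, chromosome 21 from 28445052 to 28472239, plus strand, 20 exon blocks) encodes a muscle-type glycogen phosphorylase, the enzyme that cleaves glucose units from glycogen. It had 6988 and 8272 counts in asxl1+/+ libraries A and B and 7105 and 6590 counts in asxl1-/- libraries A and B. The asxl1+/+ libraries stood at 303 and 318 CPM and the asxl1-/- libraries at 362 and 332 CPM, with means of 311 ± 10.8 and 347 ± 21.1 (SD, n = 2 each). The gap between the nearest libraries of the genotypes was 13.7 CPM, smaller than the difference of the asxl1-/- libraries from each other. The log2 fold change was 0.16 (standard error 0.06) with an FDR of 0.9999 in the quasi-likelihood test, and it was 0.10 without asxl1-/- library A.

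The other muscle-type copy, PYGM (ENSDARG00000013317, chromosome 7), had 119 and 125 CPM in asxl1+/+ and 128 and 129 CPM in asxl1-/- (log2 fold change 0.08, standard error 0.07). *pygma* was at 4.73 and 4.71 times its level per kilobase in asxl1+/+ libraries A and B and at 5.24 and 4.77 times in asxl1-/- libraries A and B. The brain-type gene PYGB and the liver-type gene PYGL had mean levels of 18.7 and 22.2 CPM per kilobase, and both overlapped between the genotypes, with log2 fold changes of 0.01 and 0.05. All 4 phosphorylases had a log2 fold change above 0, and none of the 4 passed the test.

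*ak1* (ENSDARG00000001950, chromosome 5 from 71699893 to 71722257, minus strand, 7 exon blocks) encodes the cytosolic adenylate kinase, which forms ATP and AMP from ADP. It had 26054 and 30198 counts in asxl1+/+ libraries A and B and 24036 and 24817 counts in asxl1-/- libraries A and B. The asxl1+/+ libraries had 1129 and 1161 CPM and the asxl1-/- libraries 1224 and 1250 CPM, with means of 1145 ± 22.6 and 1237 ± 18.3 (SD, n = 2 each). The gap between the nearest libraries of the genotypes was 62.2 CPM, and library B was the higher of each genotype. The log2 fold change was 0.11 (standard error 0.04) with an FDR of 0.9999 in the quasi-likelihood test.

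*ak1* was far more abundant than the genes for the matrix enzymes AK3 and AK4. Per kilobase it was between 291 and 358 times AK4, a mitochondrial matrix enzyme in mammals. AK3 and AK4 had log2 fold changes of -0.14 and -0.07, and neither passed the test. AK3, a matrix enzyme that uses GTP, had 20.4 and 20.5 CPM in asxl1+/+ and 17.97 and 19.2 CPM in asxl1-/-, while AK4 overlapped between the genotypes. *ak1* was at 120 and 123 times the level of AK3 per kilobase in asxl1+/+ libraries A and B and at 148 and 141 times in asxl1-/- libraries A and B.

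*pvalb4* (ENSDARG00000024433, chromosome 3 from 61174750 to 61185746, minus strand, 5 exon blocks) encodes a parvalbumin. It had 14049 and 16663 counts in asxl1+/+ libraries A and B and 13867 and 14693 counts in asxl1-/- libraries A and B. The asxl1+/+ libraries had 609 and 641 CPM and the asxl1-/- libraries 706 and 740 CPM, with means of 625 ± 22.5 and 723 ± 23.9 (SD, n = 2 each). Both asxl1-/- libraries lay above both asxl1+/+ libraries, with a gap of 65.1 CPM. The log2 fold change was 0.21 (standard error 0.05), with an FDR of 0.713 in the quasi-likelihood test. Its exons share 58 bases with an unnamed gene on the opposite strand, ENSDARG00000098994, which had 144 and 174 counts in asxl1+/+ and 107 and 130 counts in asxl1-/-. The counting did not use strand, so reads of the 2 genes in those bases cannot be told apart.

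*pvalb4* lies in a cluster of 4 parvalbumin genes that spans 64.2 kb of chromosome 3, in the order *pvalb8*, *pvalb4*, *pvalb1* and *pvalb5*. The neighbours differed in level and in their values by genotype. *pvalb8*, which is also on the study's list, had 44.5 and 49.4 CPM in asxl1+/+ libraries A and B and 53.7 and 60.6 CPM in asxl1-/- libraries A and B. Its log2 fold change was 0.28 (standard error 0.09) with an FDR of 0.9999 in the quasi-likelihood test. *pvalb1*, the second most abundant of all genes tested per kilobase at 19975, had 13403 and 13506 CPM in asxl1+/+ and 12970 and 13573 CPM in asxl1-/- (log2 fold change -0.02, standard error 0.03). *pvalb5* had between 2 and 6 counts per library and did not pass the filter on low counts. *pvalb4* was at 0.0154 and 0.0161 of the level of *pvalb1* per kilobase in asxl1+/+ libraries A and B and at 0.0184 and 0.0185 in asxl1-/- libraries A and B. The ratio of *pvalb4* to *pvalb8* overlapped between the genotypes, at 5.82 and 5.51 in the asxl1+/+ libraries and 5.59 and 5.19 in the asxl1-/- libraries.

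The other parvalbumins lie on chromosomes 12 and 22. *pvalb2* had 9091 CPM per kilobase, rank 4 among all genes tested, and overlapped between the genotypes (log2 fold change -0.01). *pvalb3* (log2 fold change -0.05) and *pvalb9* (-0.07) overlapped as well, and *pvalb7*, at 8.54 and 8.31 CPM in asxl1+/+ and 7.08 and 7.85 CPM in asxl1-/-, differed by -0.17 ± 0.14 (standard error) on the log2 scale. The parvalbumin sum was 24763 and 25225 CPM in asxl1+/+ and 24259 and 25431 CPM in asxl1-/-. *pvalb1* and *pvalb2* made up most of this sum, and it overlapped between the genotypes although *pvalb4* did not.

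*atp2a1l* (ENSDARG00000035458, chromosome 12 from 13244149 to 13263658, plus strand, 24 exon blocks) is named as a gene like *atp2a1*, which encodes the SERCA calcium pump of fast muscle. It had 19858 and 20643 counts in asxl1+/+ libraries A and B and 13630 and 14289 counts in asxl1-/- libraries A and B. The asxl1+/+ libraries had 861 and 794 CPM and the asxl1-/- libraries 694 and 719 CPM, with means of 827 ± 47.3 and 707 ± 18.1 (SD, n = 2 each). Both asxl1-/- libraries lay below both asxl1+/+ libraries, with a gap of 74.5 CPM. The log2 fold change was -0.23 (standard error 0.06), with an FDR of 0.608 in the quasi-likelihood test, the lowest FDR of the 6 genes.

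*atp2a1* (ENSDARG00000020574, chromosome 3) had 4395 CPM per kilobase, rank 15 among all genes tested. It had 19429 and 18855 CPM in asxl1+/+ and 18724 and 19123 CPM in asxl1-/-, which overlapped (log2 fold change -0.02, standard error 0.03). *atp2a1l* was at 0.0340 and 0.0323 of the level of *atp2a1* per kilobase in asxl1+/+ libraries A and B and at 0.0284 and 0.0288 in asxl1-/- libraries A and B. Reads from stretches that are alike in both genes could be counted for either or for neither, which was not analysed here. *atp2a2a* and ATP2A2 are copies of the gene for the pump of slow and heart muscle. *atp2a2a* had 30.0 and 31.3 CPM in asxl1+/+ and 32.6 and 32.8 CPM in asxl1-/- (log2 fold change 0.09), and ATP2A2 overlapped between the genotypes (0.00). ATP2A3, the pump of many non-muscle cells in mammals, had 53.0 and 48.6 CPM in asxl1+/+ and 57.0 and 57.1 CPM in asxl1-/- (log2 fold change 0.17, standard error 0.08). The calcium ATPase sum overlapped between the genotypes, at 20444 and 19801 CPM in asxl1+/+ and 19580 and 20003 CPM in asxl1-/-.

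**Figure D2:**
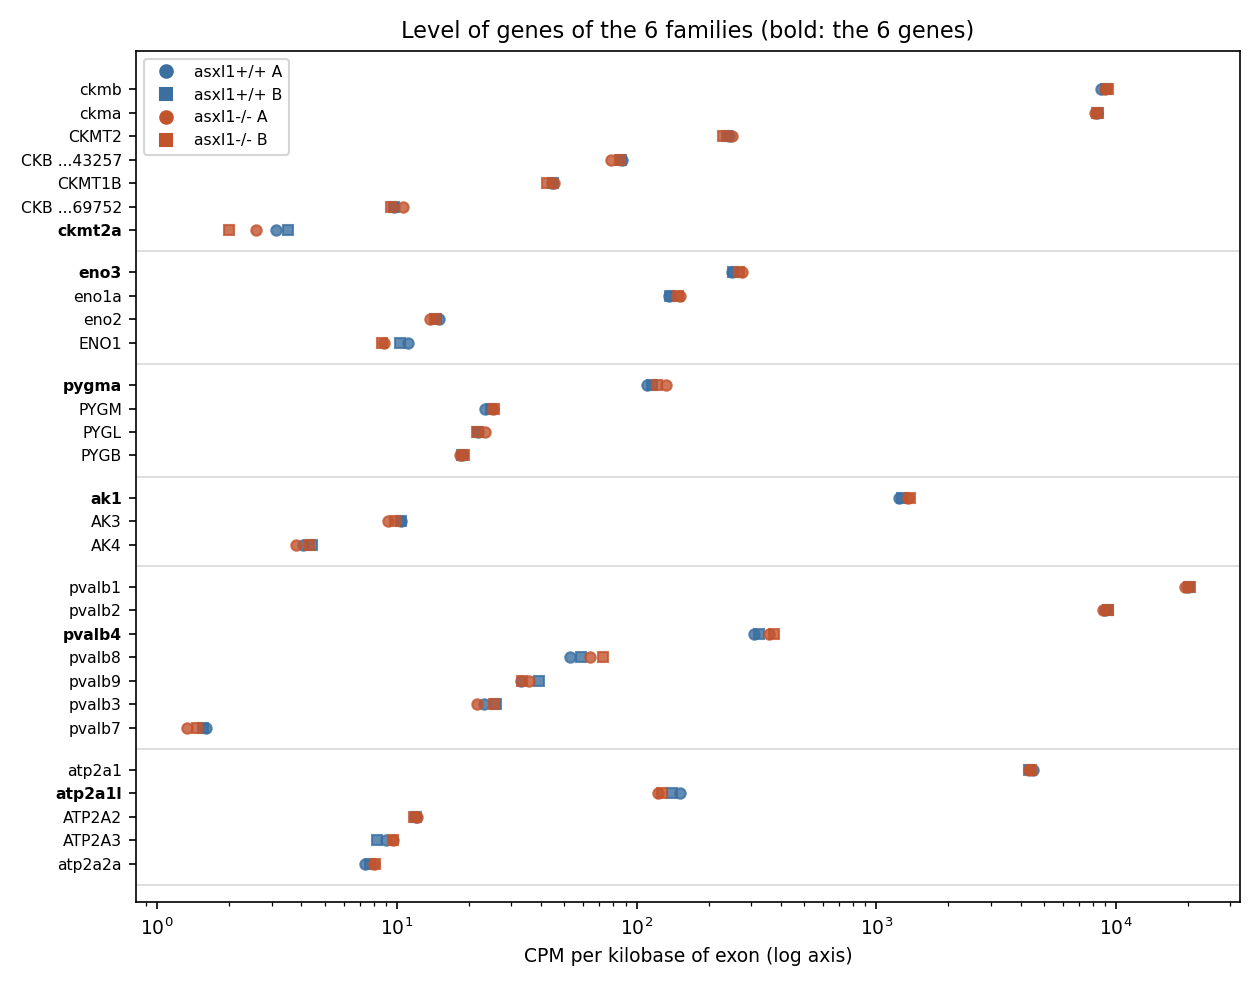
CPM per kilobase of exon (horizontal log axis) of genes tested of the creatine kinases, enolases, glycogen phosphorylases, adenylate kinases, parvalbumins and calcium ATPases (top to bottom), with 1 symbol for each library and the 6 genes in bold. *eno3*, *pygma* and *ak1* lead their families, *pvalb4* and *atp2a1l* stand far below *pvalb1* and *atp2a1*, and *ckmt2a* is the lowest of its family at 2.80 CPM per kilobase on average.

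Over the 6 families, *eno3*, *pygma* and *ak1* were the most abundant genes of theirs in each library, whereas *pvalb4*, *atp2a1l* and *ckmt2a* were minor members. The 25 other family genes tested had a median log2 fold change of -0.02, with 9 above 0 and 16 below 0. None of the 25 passed the test, and 5 were higher and 5 lower in both asxl1-/- libraries, beside the 15.4% and 14.6% of all genes tested. The higher genes include *eno1a* and *pvalb8*, which had been selected on this contrast for the study's list, so nothing is read from these counts.

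The libraries of a genotype also differed from each other. For *ckmt2a*, asxl1+/+ library B was above library A by 0.16 on the log2 scale, and asxl1-/- library B was below library A, with a difference of -0.38. Its difference between the genotypes was -0.27 for the A libraries and -0.81 for the B libraries. For *pygma*, the difference was 0.26 for the A libraries and 0.06 for the B libraries, and for *atp2a1l* it was -0.31 and -0.14. *pvalb4* and *ak1* had nearly the same difference under both letters, 0.21 and 0.21 for *pvalb4* and 0.12 and 0.11 for *ak1*, and *eno3* had 0.14 and 0.08. Over the 2346 genes with a mean of at least 50 CPM, the median size of the log2 fold change between the genotypes was 0.05. That value rests on 2 libraries of each genotype, so its size cannot be set directly against differences between single libraries. The median size of the log2 difference between libraries A and B of the same genes was 0.08 in asxl1+/+ and 0.07 in asxl1-/-. The A-to-B differences of *pvalb4*, 0.07 in each genotype, were thus close to the median gene, and that of *pygma* in asxl1-/- (-0.12) and that of *atp2a1l* in asxl1+/+ (-0.12) were larger.

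**Figure D3:**
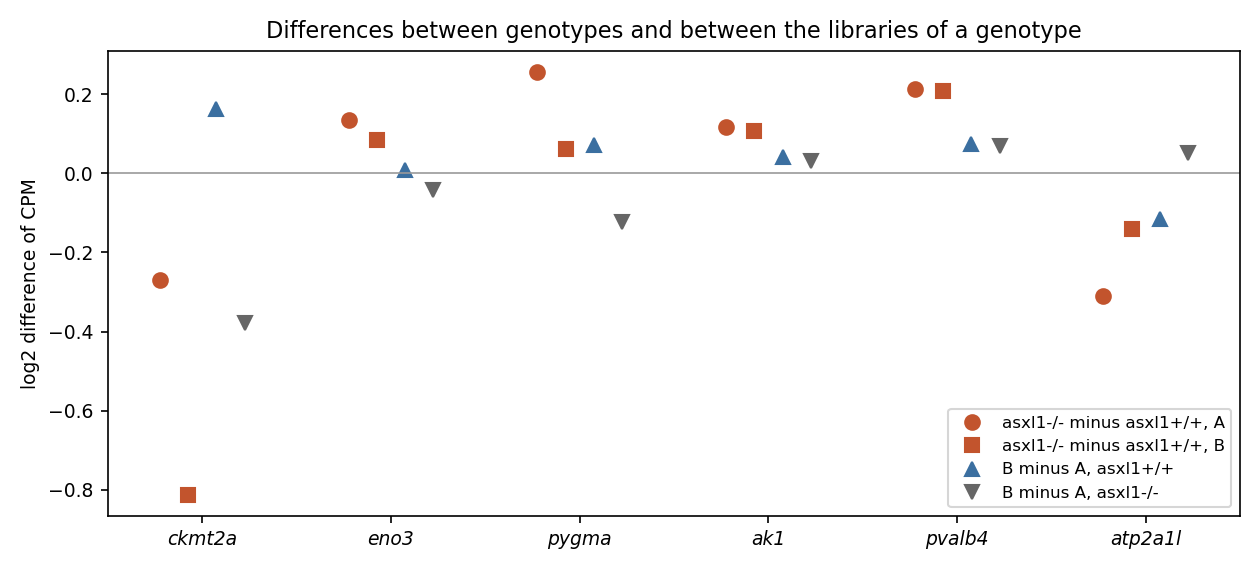
Log2 differences of CPM (vertical axis) for each of the 6 genes, between the genotypes for the A libraries (circles) and the B libraries (squares), and between libraries B and A of asxl1+/+ (upward triangles) and of asxl1-/- (downward triangles). The difference between the genotypes is nearly the same for A and B in *pvalb4* (0.21 and 0.21) and differs most in *ckmt2a* (-0.27 and -0.81).

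The other genes of the pathways were described from 6 lists that hold 96 genes passing the filter, of which 90 are not among the 6 genes. None of the 96 passed the quasi-likelihood test at an FDR of 0.05, and none passed the exact test. An unadjusted p below 0.05 was found for 13, 7 of them among the 90, beside 616 of the 19970 genes tested. Of the 90, 6 are also on the study's list and so had been selected on this contrast too. These 6 are among the 7, so nothing is read from that count. Of the 90 genes, 58 had a log2 fold change above 0 and 32 below 0, with a median of 0.04 beside 0.00 for all genes tested. The genotypes did not overlap for 31 higher genes (34.4%, beside 15.4% of all genes tested) and for 7 lower genes (7.78%, beside 14.6%). The 31 hold the 6 genes that are also on the study's list. The summed CPM of the 90 genes overlapped between the genotypes, at 95817 and 97071 in asxl1+/+ and 96005 and 98118 in asxl1-/-. No test was run on a list.

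The lists differed in their counts. They hold the 6 genes and other genes of the study's list, which had been selected on this contrast. Nothing is therefore read from the counts and shares of each list. In the phosphagen list, which adds to the creatine kinases the enzymes that make creatine and its transporter, 4 of 10 genes tested were above 0 and 6 below 0, with a median log2 fold change of -0.01. SLC6A8, the creatine transporter, had the largest value among the other genes, with 60.6 and 68.5 CPM in asxl1+/+ and 68.4 and 72.1 CPM in asxl1-/- (log2 fold change 0.12, standard error 0.09). The brain-type creatine kinase gene CKB (ENSDARG00000043257) had 172 and 170 CPM in asxl1+/+ and 155 and 168 CPM in asxl1-/- (log2 fold change -0.08, standard error 0.07). Another gene with the symbol CKB (ENSDARG00000069752) had 25.3 and 25.2 CPM in asxl1+/+ and 27.5 and 24.4 CPM in asxl1-/-. It overlapped between the genotypes (log2 fold change 0.04, standard error 0.10).

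In the glycolysis list, 20 of 26 genes tested were above 0 and 6 below 0, with a median log2 fold change of 0.08. The genotypes did not overlap for 12 higher and 3 lower genes (46.2% and 11.5%, beside 15.4% and 14.6% of all genes tested). The higher genes include *eno3*, *eno1a*, *pfkfb1*, *pfkfb3* and *gapdh*, which are on the study's list, so nothing is read from these shares. *pfkfb3*, an enzyme that sets the level of an activator of phosphofructokinase, had 259 and 251 counts in asxl1+/+ and 324 and 266 counts in asxl1-/-. In CPM, the asxl1+/+ libraries had 11.2 and 9.65 and the asxl1-/- libraries 16.5 and 13.4. The gene, which is on the study's list, differed by 0.52 ± 0.14 (standard error) on the log2 scale, with an FDR of 0.866 in the quasi-likelihood test. The largest value of the list was 0.60, for *pfkfb1* of chromosome 23, a gene of the study's list that was singled out after its values were seen and that had only 5.46 to 11.4 CPM. The smallest was that of ENO1.

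In the glycogen list, 14 of 19 genes tested were above 0 and 5 below 0, with a median of 0.03, and the genotypes did not overlap for 5 higher and 0 lower genes (26.3% and 0%, beside 15.4% and 14.6% of all genes tested). GBE1 (ENSDARG00000099524), the branching enzyme of glycogen synthesis, had 12.9 and 14.1 CPM in asxl1+/+ and 14.9 and 16.0 CPM in asxl1-/- (log2 fold change 0.19, standard error 0.12). The synthase gene GYS1 had 206 CPM as the mean of each genotype (log2 fold change 0.00). In the adenine nucleotide list, 6 of 11 genes tested were above 0, with a median of 0.02. The genotypes did not overlap for 4 higher genes and 1 lower gene (36.4% and 9.09%, beside the same 15.4% and 14.6%). *ak1* had the highest value there.

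In the calcium buffering list, which holds the parvalbumins, 2 of 7 genes tested were above 0, and these were *pvalb4* and *pvalb8*. The genotypes did not overlap for these 2 higher genes and for 1 lower gene (28.6% and 14.3%, beside 15.4% and 14.6% of all genes tested). In the list of calcium pumps and release genes, 16 of 23 genes tested were above 0 and 7 below 0, with a median of 0.05, and the genotypes did not overlap for 11 higher and 2 lower genes (47.8% and 8.70%, beside 15.4% and 14.6% of all genes tested). *atp2a1l* had the lowest value of that list. The largest was 0.19 (standard error 0.08, FDR 0.9999 in the quasi-likelihood test) for ENSDARG00000112959, named *wu:fb80c09* in the study's list and SRL in the reference table, the symbol of sarcalumenin, a calcium-binding protein of the sarcoplasmic reticulum. It had 165 and 184 CPM in asxl1+/+ and 187 and 210 CPM in asxl1-/-. A second gene of the list with the symbol SRL (ENSDARG00000104587) had 323 and 315 CPM in asxl1+/+ and 339 and 328 CPM in asxl1-/- (log2 fold change 0.06, standard error 0.06). Slow muscle markers, 7 of 11 of them above 0 with a median of 0.10, had a higher sum in both asxl1-/- libraries than in both asxl1+/+ libraries. Many of these markers are on the study's list and so had been selected on this contrast, and nothing is read from that sum. The part of slow muscle markers in the values of these lists was not tested.

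**Figure D4:**
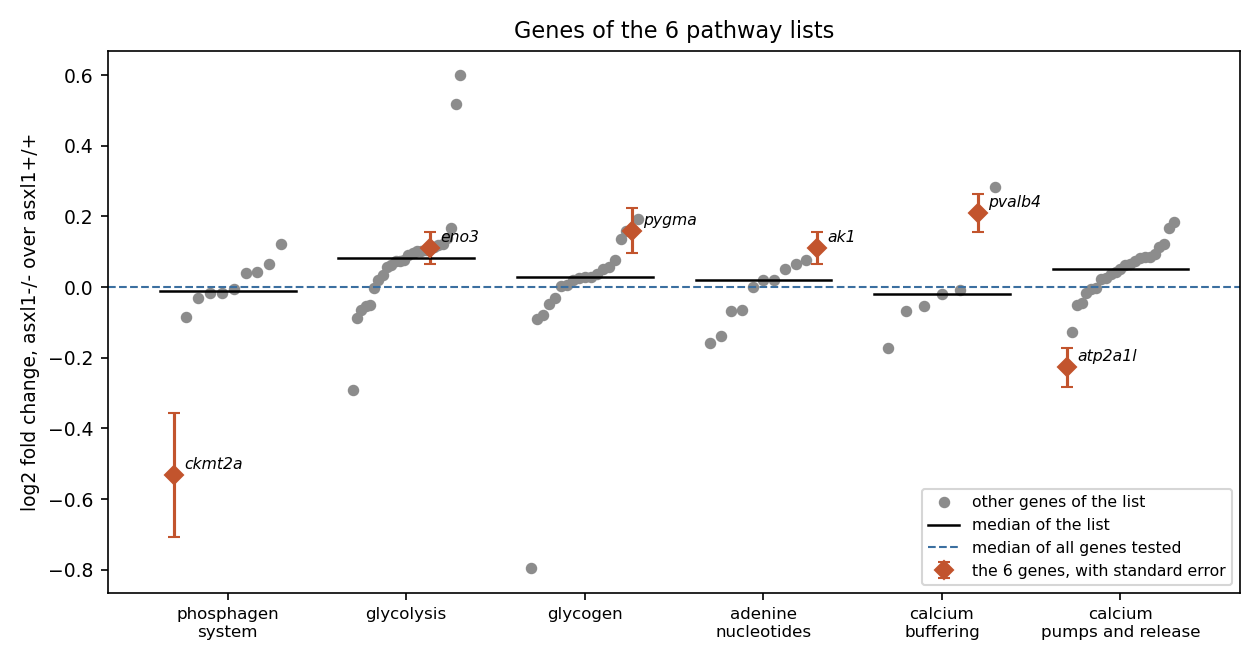
Log2 fold change of asxl1-/- over asxl1+/+ (vertical axis) of each gene tested in the 6 lists, in rising order within a list, with the 6 genes as diamonds with their standard error, a black line for the median of each list and a dashed line for the median of all genes tested. *ckmt2a* and *atp2a1l* lie below the medians of their lists (-0.01 and 0.05), and the other 4 genes lie above those of theirs.

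The likeness of each of the 6 genes to 2322 other named genes with a mean of at least 50 CPM was measured as the root mean square difference of centred log2 CPM over the 4 libraries, where 0 is an identical pattern. With only 4 libraries the measure is given as a description. Nearest to *eno3* were *zgc:63587* of chromosome 8 (0.0028) and *eno1a* (0.0077). Nearest to *pygma* were PSMB7, a proteasome subunit gene (0.012), and *pgm1*, the phosphoglucomutase of glycogen breakdown (0.018). *pgm1* had 135 and 142 CPM in asxl1+/+ and 161 and 144 CPM in asxl1-/-, highest in asxl1-/- library A as *pygma* was. Nearest to *ak1* were *adam10a* (0.0063) and SRP54 (0.0074), nearest to *pvalb4* were *muc5.2* (0.011) and *ca2* (0.011), and nearest to *atp2a1l* were *sox4a* (0.018) and *cx43* (0.025). *ckmt2a* had no close match among these genes, with *myh7* at 0.13 and *gstp1* at 0.14. It had only 4.23 to 7.42 CPM itself, and genes at its own level were not compared. Among the 6 genes, the nearest were *eno3* and *ak1* at 0.028 and the farthest were *ckmt2a* and *pvalb4* at 0.40.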

How the data were processed

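The authors extracted total RNA from the tails and, per their methods, made libraries from poly-A selected RNA, while the labels say total RNA. Alignment to GRCz11 was by STAR and, per the file headers, featureCounts 1.6.4 assigned read pairs to the exons of Ensembl 96 genes, ignoring strand. The deposited values are raw counts, not normalized or filtered, for 32520 genes, and all sample columns were used.

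From these counts, edgeR 4.0.16 in R 4.3.3 kept 19970 genes (filterByExpr by genotype), scaled by TMM and tested the genotype by quasi-likelihood, adjusting p-values over all genes tested by the Benjamini-Hochberg method. The study names edgeR's exact test, which was run as an alternative. The standard error was derived from the log2 fold change and its F statistic. Levels are CPM divided by exonic length. Depth per library was 19423797 to 26281738 counts, and 2 libraries per genotype limit the precision. Nothing in the labels says what replicate letters share. The main fit did not hold the letter, so its p-values measure the spread between these pools together with any difference between the letters. Chi-square per degree of freedom between libraries was at least 3.05, so no library was a repeat of another.

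The 6 genes, the lists and the tests were chosen with earlier results of these data known. The genes named besides the 6 are their family genes, the 2 of each list with the largest fold change at a mean of at least 10 CPM, any called gene of a list, and the 2 most alike to each of the 6. *pfkfb1*, *gapdh*, GYS1, the second SRL gene and single markers of cell types are named in addition. Of the list symbols, *pgk1*, *pvalb6* and *jsrp1* were not matched. A family gene is not reported here by name or value. Genes without a zebrafish symbol in the reference table carry its human symbol. Columns of the study's list other than names and identifiers were not used. The fits were tested on simulated counts with planted changes larger than those of the 6 genes and no effect of the letter. That test does not cover differences as small as theirs. Alternatives tried were DESeq2 1.42.0, edgeR's exact test, a block on the replicate letter, library size without TMM, other filters, an FDR of 0.01 and each library left out. Plots were made in Python 3.11.15 with matplotlib 3.10.9.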

Additional observations from a re-analysis of the deposited data

How the results depend on the processing

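The log2 fold changes of the 6 genes kept their sign under all 11 alternatives. None of the 6 was called at an FDR of 0.05 under the exact test, DESeq2, library size without TMM, other filters, an FDR of 0.01 or with any library left out. With the replicate letter as a block (replicate block), 5 of the 6 were called, all but *eno3* (FDR 0.0512), beside 301 of the 19970 genes tested. With the block and no filter, 4 of the 6 were called, beside 275 of 26870 genes. The 6 genes had been selected on this contrast, so nothing is read from these counts. The labels do not say what libraries of a letter share. Deviations from the genotype means correlated by 0.27 across genes between same-lettered libraries. Principal component 1 (41.9% of the variance) split the letters and component 2 (34.3%) split the genotypes. Chi-square per degree of freedom was 3.05 and 3.20 between libraries of a letter and 6.46 and 4.87 between libraries of a genotype, and adding the block took the common biological coefficient of variation from 8.81% to 3.49%. These values are a hint from the data and not from the design, so the block was not used for the values above. The block leaves 1 residual degree of freedom.

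Over all genes tested, 12 were called, against 53 by the exact test, 301 with the replicate block, 275 with the block and no filter, 27 by DESeq2, 19 without a filter and 2 at an FDR of 0.01. Leaving out 1 library gave between 9 and 80 genes, with 67 without asxl1-/- replicate A and 80 without asxl1-/- replicate B. The cause was not tested. In the pathway lists, the block called 10 of the 96 genes tested, against 0, beside the 301 of 19970. Of these 10, 5 were among the 6 genes, and the other 5 are also on the study's list. All 10 had thus been selected on this contrast, so nothing is read from this count. *ckmt2a* ranged from -0.73 to -0.36 and *pygma* from 0.10 to 0.22 when each library was left out. The low count of *ckmt2a* limits its precision.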
